A study of Homo sapiens with 2 samples.

Results

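The S100 family was followed in MDA-MB-231 cells, an established human line of triple-negative breast cancer, through 10 genes: S100P, S100A2, S100A4, S100A6, S100A8, S100A9, S100A10, S100A11, S100A14 and S100A16. The genes were picked with their differences on these arrays already known, and all 13 probe sets that the platform annotation assigns to exactly 1 of them were used, out of 41091 probe sets with a single gene and 19775 genes in all. RNA came from cells 48 h after transfection with siRNA against KMO (siKMO), the gene of the mitochondrial enzyme kynurenine 3-monooxygenase, and from cells given a control siRNA for the same time. Each condition is 1 Affymetrix U133 Plus 2.0 array of a whole culture, so there is no replicate, no test and no p-value, and each difference describes this pair of dishes. In such bulk RNA, fewer cells with a transcript and less transcript in each cell cannot be told apart. The titles and treatment labels name siRNA, while the array names carry shLUC and shK421, and the grouping follows the titles.

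S100 proteins are small dimeric proteins with paired EF-hand loops. When calcium fills the loops, most of them open a hydrophobic face that grips a partner protein, such as an annexin, a myosin heavy chain or a scaffold of the cell cortex. They have no enzyme activity of their own, and several are also released from cells and act on receptors such as RAGE and TLR4. In breast carcinoma S100A4 and S100P are known for their links to cell motility and metastasis, and S100A2 for its loss in many breast tumours.

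Levels are log2 values after robust multi-array averaging (RMA), differences are siKMO minus control, and a difference of 1 is 2-fold. Where a gene has several probe sets, the one with the highest level averaged across the arrays stands for it, and the gene counts as measured where that mean is at least 6, a round minimum. Levels of different probe sets are not set against each other, because each binds with its own strength. The 3 KMO probe sets stood between 2.35 and 2.92 in the siKMO array and between 2.11 and 2.95 in the control array, all under the minimum, so the target does not check the labels. The level of the 3′ ACTB control probe set exceeded that of the 5′ one by 0.33 in the siKMO array and by 0.39 in the control array. All 5 markers listed for these carcinoma cells were measured; EPCAM, an epithelial adhesion molecule, stood at 7.85 in the siKMO array and 8.75 in the control array, and VIM, which encodes vimentin, at 12.96 and 12.90. The receptor genes ESR1 (4.84 and 4.74) and PGR (2.39 and 2.58) lay under the minimum in the siKMO and control arrays, whereas ERBB2 stood at 7.37 and 7.44.

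S100P and S100A4 were lower in the siKMO array by at least 2-fold, S100A2 was higher by 1.58-fold, and the other 4 measured S100 genes differed by less than 1.5-fold. Thus 7 of the 10 genes were measured, 2 of them were lower and 0 higher by at least 2-fold, and S100A8, S100A9 and S100A14 lay under the minimum on both arrays. Over all 8997 measured genes, 1.39% were lower and 0.856% were higher by 2-fold. Since the genes were chosen on this very contrast, nothing is read from setting their count against these shares. The median difference of the 7 measured genes was -0.19, beside 0.04 for all measured genes. In sign they split into 5 lower and 2 higher. S100P is among the 7 only through its control level.

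**Figure D1:**
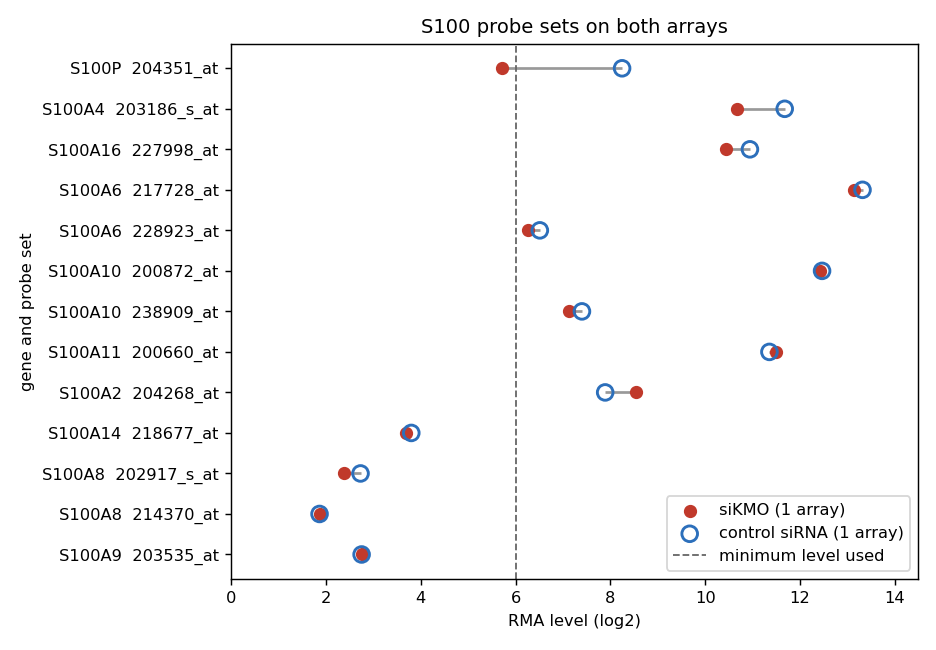
RMA levels (log2) of the 13 S100 probe sets, filled red for the siKMO array and open blue for the control array, with a dashed line at the minimum level of 6. The S100P points lie on either side of the line, those of S100A4 and S100A16 are separated above it with siKMO lower, and S100A2 has siKMO higher; levels are to be compared within a row.

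S100P, first described in placenta, binds and activates the membrane linker ezrin. Its single probe set stood at 5.71 in the siKMO array and at 8.25 in the control array. The siKMO level is under the minimum, so the transcript was at least 4.75-fold lower with 6 in its place. The deposited difference was -2.54, and it was -2.25 with the siKMO level taken as 6.

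S100A4, also called metastasin, binds non-muscle myosin IIA and loosens its filaments. Its probe set stood at 10.66 in the siKMO array and 11.68 in the control array. The difference of -1.02, a 2.02-fold lower level, lies just past 2-fold, and 115 measured genes, 1.28% of all, had a difference at least as low. The level stayed well above the minimum on both arrays. The gene has no other probe set here, and this one carries the suffix of probe sets that match several transcripts.

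S100A16, a widely expressed member of the family, stood at 10.43 in the siKMO array and 10.94 in the control array. The difference of -0.51 is a 1.42-fold lower level, short of the 1.5-fold mark, and 6.89% of measured genes had a difference at least as low. It thus had the third lowest value among the S100 genes measured.

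S100A2, a mainly nuclear member that p53 family proteins bind and switch on, went the other way. It stood at 8.55 in the siKMO array and 7.89 in the control array, a difference of 0.66 or 1.58-fold. Of all measured genes, 5.19% were higher by at least 1.5-fold and 3.71% had a difference at least as high as that of S100A2. S100A2 was the only one of the 7 that passed 1.5-fold upward.

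S100A6, S100A10 and S100A11, which bind annexins, differed by less than 1.5-fold with each of their probe sets. S100A6, known as calcyclin, stood at 13.13 in the siKMO array and 13.32 in the control array, a difference of -0.19, and its other probe set differed by -0.26 (6.25 in siKMO, 6.51 in control). S100A10, the light chain of annexin A2, which stays in the open form without binding calcium, stood at 12.42 in the siKMO array and 12.47 in the control array, a difference of -0.05. Its other probe set stood at 7.12 in the siKMO array and 7.40 in the control array, a difference of -0.28. S100A11 stood at 11.50 in the siKMO array and 11.36 in the control array, a difference of 0.14. For S100A6 and S100A10 both probe sets gave the same sign. Over 3777 genes with at least 2 measured probe sets, differences within a gene had a pooled SD of 0.18, a spread of the measurement and not of cultures. The differences of S100A10 and S100A11 with their main probe sets are smaller than that SD, and that of S100A6 is slightly above it. With the other probe sets of S100A6 and S100A10, the differences of -0.26 and -0.28 are larger than that SD.

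S100A8 and S100A9 form calprotectin, a heterodimer best known from neutrophils and monocytes, and S100A14 is an epithelial member. S100A8 stood at 2.37 in the siKMO array and 2.73 in the control array with one probe set, and at 1.86 on both arrays with the other. S100A9 stood at 2.75 on both arrays, to the last deposited digit, as 9.46% of all 54675 probe sets did. S100A14 stood at 3.70 in the siKMO array and 3.80 in the control array. No fold is given for these 3 genes. Of 8 listed myeloid markers, 6 had a probe set used here and 0 were measured, with levels from 2.92 to 5.29 in the siKMO array and from 2.80 to 5.19 in the control array. Their summed log2 level was 23.5 in the siKMO array and 23.8 in the control array, and PTPRC, the common leukocyte antigen, stood at 2.98 and 3.39. Keratinocytes are cells in which other S100 genes are abundant. Of 7 keratinocyte markers (KRT1, KRT10, IVL, LORICRIN, SPRR1B, KRT5 and KRT14), 6 lay under the minimum. The summed log2 level over all 7 was 29.9 in the siKMO array and 30.0 in the control array. The exception was KRT10, at 9.95 in the siKMO array and 9.88 in the control array.

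**Figure D2:**
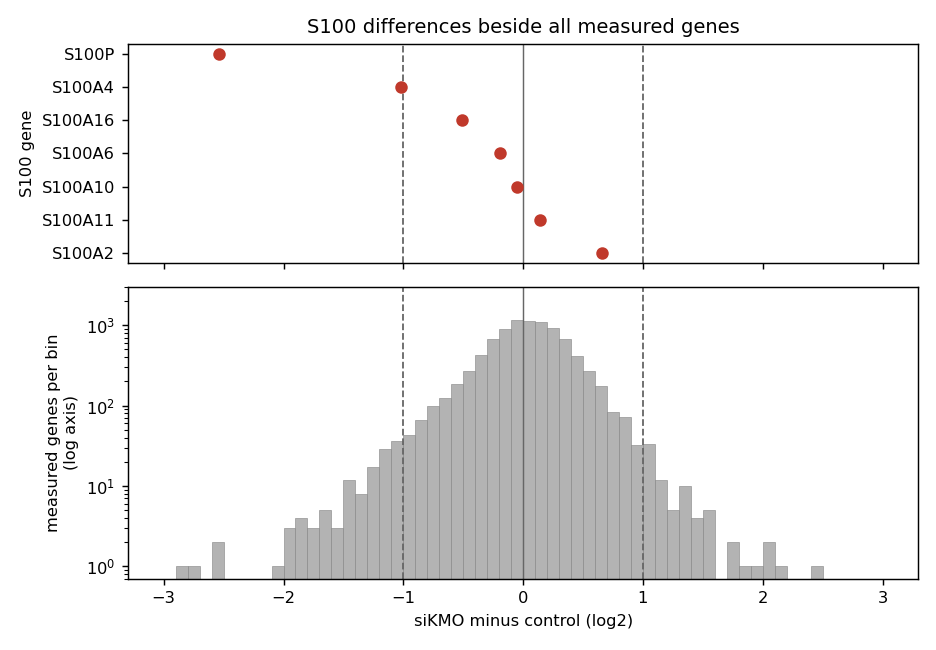
Difference siKMO minus control (log2) of each measured S100 gene, top, and a histogram of the 8997 measured genes in bins of 0.1 with a log axis, bottom; dashed lines mark 2-fold. S100P lies in the far lower tail, S100A4 just past the lower line, and the other 5 between the lines.

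The stretch before each gene's start is shown for both genes that were lower by 2-fold, for the gene that was higher, and, as an example of a CpG-rich promoter, for S100A10. The letters are 250 bases before the start, 5′ to 3′ on the gene's strand, from RefSeq on GRCh38.p14. Capitals mark matches to the motifs named further on. The windows are chr4:6693628-6693877 on the plus strand, chr1:153545807-153546056, chr1:153565845-153566094 (the first of 2 starts listed) and chr1:151993860-151994109, these last on the minus strand.
S100P: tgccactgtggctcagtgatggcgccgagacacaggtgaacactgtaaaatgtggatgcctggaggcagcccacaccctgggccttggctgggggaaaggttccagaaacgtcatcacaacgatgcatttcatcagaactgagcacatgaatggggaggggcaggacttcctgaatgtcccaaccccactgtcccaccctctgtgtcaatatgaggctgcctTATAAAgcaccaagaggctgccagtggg
S100A4: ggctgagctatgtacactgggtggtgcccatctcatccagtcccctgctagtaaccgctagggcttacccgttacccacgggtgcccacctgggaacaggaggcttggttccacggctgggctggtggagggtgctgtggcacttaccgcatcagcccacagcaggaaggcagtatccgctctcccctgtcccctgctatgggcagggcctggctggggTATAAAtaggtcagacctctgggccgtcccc
S100A2: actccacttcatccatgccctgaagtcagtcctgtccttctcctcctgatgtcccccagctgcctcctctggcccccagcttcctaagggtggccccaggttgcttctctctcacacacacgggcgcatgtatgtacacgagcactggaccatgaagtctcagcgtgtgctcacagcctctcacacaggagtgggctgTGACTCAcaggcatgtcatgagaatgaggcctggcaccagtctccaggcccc
S100A10: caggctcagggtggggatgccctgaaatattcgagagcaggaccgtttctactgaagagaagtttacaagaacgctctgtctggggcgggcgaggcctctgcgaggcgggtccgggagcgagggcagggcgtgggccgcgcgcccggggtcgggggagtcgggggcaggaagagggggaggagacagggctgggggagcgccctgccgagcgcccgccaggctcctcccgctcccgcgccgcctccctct

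All 10 genes had a promoter in the table, 14 windows in all because S100A8, S100A2 and S100A16 have several starts. Searched on both strands, TATAAA, a strict form of the TATA box, was found in 5 of the 14 windows, beside 10.7% of 35116 windows of all genes. It lay at -28 to -23 from the start in S100P, at -31 to -26 in S100A4 and at -29 to -24 in S100A9. The other matches were both in S100A8, in overlapping windows that share it. TGANTCA, the AP-1 site, was found in the S100A2 window printed and in no other S100 window, at -52 to -46, beside 6.57% of all windows. TTGCNNAA, a C/EBP site, occurred in S100A11, beside 9.05% of all windows. CTTTGAT and CTTTGAA, forms of the TCF/LEF site, had no match in any of the 14, which says only that these letters are not in these windows.

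The windows also differed in CpG dinucleotides. S100A6 and S100A10 each had 24 CpG in 250 bases and S100A11 had 15, while S100P and the S100A2 window shown had 4 and S100A4 had 7. The median of all windows was 11. The 3 CpG-rich genes are those with differences between -0.19 and 0.14 with their main probe sets, and the others measured ran from -2.54 to 0.66. With 7 genes, chosen with these same differences known, this is a description from which nothing is read. A match or a base count shows no binding.

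On chromosome 1 most S100 genes lie in 1 run, which allowed neighbours to be compared. In the order of the RefSeq table, S100A4 (a difference of -1.02) is followed by S100A3 (0.06), S100A2 (0.66), S100A16 (-0.51), S100A14, S100A13 (0.05) and S100A1. S100A2 and S100A16 are thus adjacent S100 genes with differences of opposite sign, while S100A3, next to S100A4, differed by less than the SD of 0.18 between probe sets of a gene. S100A3 stood at 7.78 in the siKMO array and 7.72 in the control array, and S100A13, which is needed for the release of FGF1, at 9.68 and 9.63. They were the only 2 measured of the 11 other S100 genes listed, 10 of which had a probe set. The rest, among them S100A7, S100A12, S100B and S100A1, lay under the minimum.

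Of 67 other protein-coding genes between these S100 genes or within 10 genes of them, 41 had a probe set and 12 were measured, with a median of 0.16, 9 positive and 3 negative differences. Over all 8997 measured genes the median was 0.04, with 4928 positive and 3967 negative differences. With 12 genes, nothing is read from this split. FLG, which encodes filaggrin, a fused-type relative of the S100 family in the skin barrier, stood at 6.85 in the siKMO array and 5.48 in the control array, at least 1.81-fold higher. FLG is 1 of the 9 positive differences and counts as measured only through its siKMO level. MRPL9, a protein of the mitochondrial ribosome, differed by 0.42 and the thioesterase THEM4 by 0.36. S100P lies apart, on chromosome 4. Of its 20 nearest protein-coding neighbours, 11 were measured and 0 differed by 1.5-fold, beside 5.19% higher and 5.41% lower over all measured genes. The next genes in the table differed by 0.29 (MRFAP1L2) and -0.14 (MRFAP1L1), and BLOC1S4, a subunit of the complex that makes lysosome-related organelles, by -0.43.

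**Figure D3:**
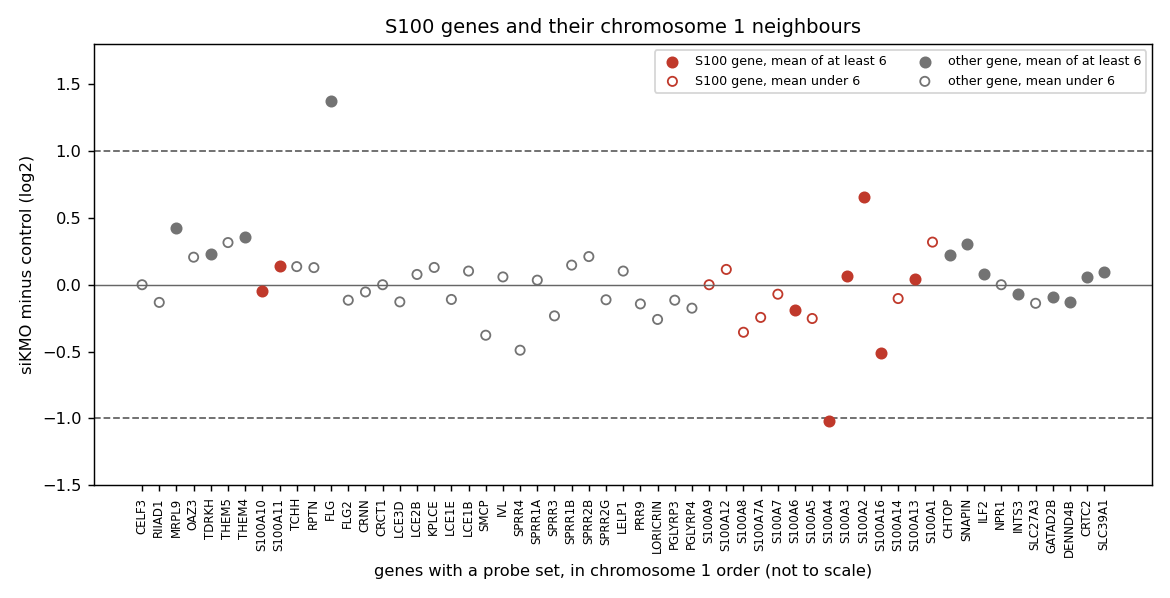
Difference siKMO minus control (log2) for genes with a probe set in chromosome 1 order, red for S100 genes and grey for others, filled where the mean level is at least 6. S100A4 and S100A2 stand apart in opposite directions with S100A3 between them near 0, S100A16 follows on the lower side, and FLG is the highest point. FLG is plotted at its deposited difference, though its control level is under the minimum.

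The partners that S100 proteins bind at the membrane differed by less than 1.5-fold. Of 10 annexins and scaffold genes, all 10 were measured, with a median of -0.14. Among them 8 differences were negative and 2 positive, beside 3967 negative differences among all 8997 measured genes. Past 1.5-fold there were 0, beside 5.19% higher and 5.41% lower of all measured genes. This list and those that follow were drawn up with earlier results of these data known. Nothing is therefore read from setting their counts against the shares of all genes. ANXA2, the partner of S100A10, differed by -0.10 (12.98 in siKMO, 13.08 in control), and ANXA1, the partner of S100A11, by 0.07. ANXA6 differed by -0.57 and ANXA3 by -0.40. AHNAK2, a giant relative of the scaffold AHNAK, differed by -0.54, but by 0.58 with its other probe set, so its direction was not settled. Of the plasminogen system, which the S100A10 and annexin A2 complex assembles at the cell surface, 3 of 6 listed genes were measured and 1 was lower by 1.5-fold, beside 5.41% of all measured genes. The plasminogen activator PLAT stood at 10.78 in the siKMO array and 11.65 in the control array, a difference of -0.87. The urokinase receptor PLAUR and urokinase, PLAU, differed by -0.41 and -0.39, short of 1.5-fold, and the median of the 3 was -0.41.

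Among the receptors of released S100 proteins, 6 of 9 were measured, with a median of -0.13. By the deposited values 1 of them was higher and 1 lower by 2-fold, beside 0.856% and 1.39% of all measured genes, and the higher one, TLR4, is measured only through its siKMO level. TLR4, the receptor of S100A8 and S100A9 on innate immune cells, stood at 6.94 in the siKMO array and 5.36 in the control array, at least 1.92-fold higher. This lower bound does not settle whether 2-fold was reached. All 4 of its probe sets had a control level under the minimum, and 1 was under it on both arrays, so the sizes of their differences are not given. MCAM, an adhesion molecule that binds S100A8 and S100A9, stood at 6.68 in the siKMO array and 7.83 in the control array, 2.23-fold lower, while its other probe set, under the minimum, differed by -0.15. NPTN and BSG, other receptors of S100A9 or S100A8, differed by -0.21 and -0.20. AGER, which encodes RAGE, lay under the minimum, at 3.86 in the siKMO array and 4.02 in the control array.

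Targets inside the cell showed no common direction. Of 20 listed genes, 15 were measured, 8 higher and 7 lower, 0 by 1.5-fold with their main probe sets, with a median of 0.02. METAP2 differed by -0.04 with its main probe set, but by 0.71 and 0.88 with other probe sets. Over all measured genes, 5.19% were higher and 5.41% lower by 1.5-fold, so nothing is read from 0 among 15. For S100P, EZR (ezrin) differed by 0.02, the scaffold IQGAP1 by -0.20 and the binding protein S100PBP by 0.07. Other probe sets gave 0.46 for IQGAP1 and -0.41 for S100PBP, so the direction of both was not settled. For S100A4, the myosin heavy chain MYH9 differed by -0.16. CACYBP, which binds S100A6, differed by 0.33 (0.33 to 0.51 over 4 probe sets), and STIP1, a co-chaperone, by 0.47. MDM2, the ubiquitin ligase of p53, differed by 0.54 but ran from -0.35 to 0.62 over 10 probe sets, both ends from probe sets under the minimum. Another MDM2 probe set, at 5.97 in siKMO and 6.11 in control, differed by -0.13.

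Transcription factors and cytokines known to drive S100 genes had a median of -0.51, and 10 of the 14 measured were lower in the siKMO array. By 1.5-fold, 4 were lower and 0 higher, beside 5.41% and 5.19% of all measured genes. Because earlier results of these data were known when the list was made, nothing is read from this contrast or from the median. IL1B, a cytokine that induces S100A8 and S100A9, stood at 6.31 in the siKMO array and 8.05 in the control array, 3.33-fold lower. HIF1A differed by -0.65, IL6 by -0.62 and CEBPB by -0.60. The glucocorticoid receptor, NR3C1, differed by -0.50 and by -0.57 to -0.39 over 5 probe sets. For the beta-catenin route, which is known to switch on S100A4 and which the study's title names, CTNNB1 differed by 0.09. The transcription factor TCF7L2 differed by -0.52 (-0.56 to -0.08 over 7 probe sets, the -0.08 from a probe set under the minimum). For CTNNB1 and TCF7L2 these are RNA levels, and neither beta-catenin protein nor the activity of the route was measured here. PPARG and SMAD4 differed by 0.06 and 0.05. The part of any of these genes in the S100 levels was not tested.

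**Figure D4:**
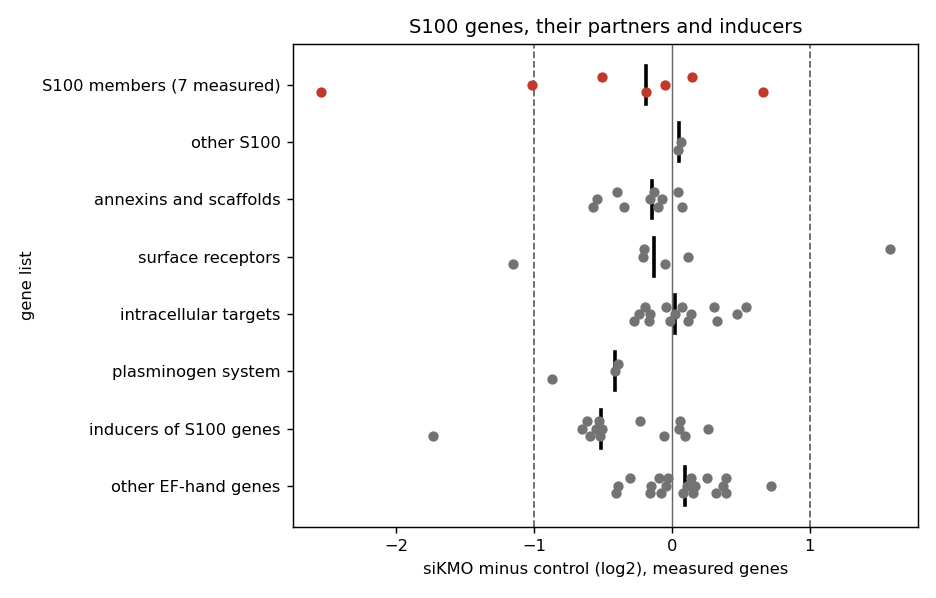
Difference siKMO minus control (log2) of the measured genes of each list, a point per gene with the list median as a black bar and dashed lines at 2-fold; vertical scatter within a row has no meaning. The inducers have the lowest median, -0.51, TLR4 and MCAM are the far points of the receptors, and the intracellular targets lie around 0. TLR4 is plotted at its deposited difference, though its control level is under the minimum. The lists were drawn up with earlier results of these data known.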

How the data were processed

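RNA was measured in 1 siKMO and 1 control array. Per the labels, the authors' deposited values are log2 levels from robust multi-array averaging, which corrects background, quantile normalizes and combines probes into probe sets. Affymetrix Expression Console is named, per the submitters' processing notes, with no version, and the set of arrays processed jointly is not given. Such values hold no detection call, and precision is limited by having 1 array per condition. Symbols of probe sets with 1 gene in the platform annotation (1801 of 42892 had several and were left out) were updated by gene identifier against a RefSeq table of GRCh38.p14.

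Differences, counts at 2-fold and list medians were computed in Python 3.11.15 with pandas 2.3.3, and the calculation was tested on simulated data. A level under 6 makes a fold a lower bound with 6 in its place. The named genes are all 10 members, up to 3 genes of largest absolute difference per list, any past 2-fold, and other listed partners or inducers; the genes nearest to S100P in level, also planned, are not given, since levels of different probe sets cannot be compared. Listed partners and inducers beyond the largest were chosen after their values were seen. Motifs were chosen after the data were seen. Members and lists were chosen with earlier results of these data known. Protein identity was planned but not analysed here. Alternatives were the probe set rule, the minimum level (none or 7), the fold threshold (1.5), a floor at 6 and centring.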

Additional observations from a re-analysis of the deposited data

How the results depend on the processing

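Member differences were recomputed with the mean of all probe sets, without _x_at and _s_at probe sets, with levels under 6 set to 6, and with arrays centred on their median, a shift of 0.04. Of 39 such values, 36 moved by less than the SD of 0.18 between probe sets of a gene, 3 moved further and 0 changed sign among genes past 2-fold. Most of the 39 could hardly move, so the 36 are no measure of robustness. For the 7 genes with 1 probe set, the mean of all probe sets is the same value. Centring shifts every gene by 0.04, which is under that SD, and the floor leaves levels of at least 6 as they are. With levels under 6 set to 6, S100P differed by -2.25 and S100A8 by 0, and without _x_at and _s_at probe sets S100A8 also differed by 0. The count of S100 genes lower by 2-fold was 1 at a minimum level of 7, where S100P, with a mean of 6.98, is left out, and 1 without _x_at and _s_at probe sets, where S100A4 has no value. At 1.5-fold the count of higher genes was 1, S100A2. Of 29 alternative list medians, 28 moved by less than 0.18. The annexin list, for example, kept its 10 genes at every minimum level, so the 28 are no measure of robustness. The fused-type list, with FLG as its 1 measured gene, had 1.37 with the minimum level and 0.13 without it over 5 genes. FLG passed the minimum only through its siKMO level, and its difference was 0.85 with the control level taken as 6. No paired analysis was possible because each condition has 1 array, and for the same reason no replicate could be left out. S100P and S100A4 each rest on 1 probe set.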

Other observations

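Calcium-binding genes outside the S100 family were also listed. Of 33 other EF-hand genes listed, 29 had a probe set used here and 20 were measured. In the siKMO array 11 were higher and 9 lower, 0 by 2-fold, with a median of 0.09. Over all measured genes, 0.856% were higher and 1.39% lower by 2-fold, so nothing is read from 0 among 20. CALB2, which encodes the calcium buffer calretinin, stood at 8.26 in the siKMO array and 7.54 in the control array, a difference of 0.72. It was the only one past 1.5-fold, beside 5.19% of all measured genes higher by that much. GCA, which encodes grancalcin, differed by -0.41 and the centriole protein CETN3 by 0.40. Of the 7 fused-type S100 relatives, 5 had a probe set, and FLG alone was measured, through its siKMO level only.

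The cytokine IL1A, a listed inducer whose mean lay under the minimum, stood at 4.50 in the siKMO array and 6.86 in the control array, at least 1.81-fold lower. Its other probe set, under the minimum on both arrays (3.87 in siKMO, 3.73 in control), differed by 0.14.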
